A study of Bos taurus with 6 samples.

Results

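Of 4702 windows of 1000 bp with enough shared data in the blood of cattle, 714 windows on the autosomes were read very deeply in every animal, and they are described here as the deep windows. They were found on a fixed grid starting at the first base of autosomes 1 to 29 (genome build UMD3.1). A window was taken when it held at least 3 cytosines covered in all 6 libraries and when the calls at these cytosines summed to at least 1000 in every library. A call is a read of a CpG cytosine as methylated or unmethylated, and the methylation level is the methylated share of the calls in percent. The rule used depth only, so the level did not enter it. Summed calls favour windows with many shared cytosines, and high counts carry less counting error. The spread between animals and the recurrence of CpG spacings are thus partly tied to the rule. The remaining 3847 autosomal windows, called the other windows, had 3 or more shared cytosines and at least 10 but under 1000 calls in their least covered library. Of these, the 1263 windows with at least 100 calls are called moderately covered, and the 2584 with fewer are called thinly covered.

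Reduced representation bisulfite sequencing was applied to blood DNA of adult males from 5 breeds, 1 library for each animal. Creole 1 was a Sanmartinero male, and Creole 2 and Creole 3 were of the breed Costeno con Cuernos, both breeds being kept in the American tropics. Spanish 1 was a Retinta male, Spanish 2 was of the breed Asturiana de los Valles, and Spanish 3 belonged to the Lidia breed, all of Iberian stock held to be ancestral to the Creole breeds. The Creole DNA came from another extraction kit and carried another lane mark than the Spanish DNA, so group, kit and lane cannot be told apart. Blood holds several cell types whose shares were not measured, and each level is an average over them.

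In this assay MspI cuts DNA at CCGG whether or not the inner cytosine is methylated, and fragments of a narrow size range are sequenced from their ends. A repeat that carries MspI sites at a fixed distance therefore yields the same fragment from each of its copies, and such fragments can dominate a library. Interspersed and satellite repeats in mammals are as a rule methylated in somatic cells, which keeps transposable elements silent, while CpG islands at promoters are mostly free of methylation. Copies of one repeat have the same order and distances of CpGs, except where a CpG has mutated.

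The deep windows took a large part of the sequencing. They held 14375 shared cytosines, between 3 and 113 in a window with a median of 18, against a median of 8 in the other windows. Of all calls in a library, the deep windows held 28.8%, 23.0% and 21.5% in the Creole animals and 19.5%, 17.9% and 18.9% in the Spanish animals, each group in numerical order here and below. The 3 Creole shares were all above the 3 Spanish shares. The libraries totalled 40986296 to 84537374 calls. The median deep window had 2727 calls in its least covered library, and the 95% Wilson interval of a level had a median half-width of 0.970 points and a largest one of 3.05 points over 4284 values. These intervals cover counting error only, since reads amplified by PCR are not independent molecules.

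Depth in these windows was uneven between animals, though less so than in less covered windows. After scaling to the total calls of each library, the most covered library exceeded the least covered one by a median of 4.11-fold, and by more than 10-fold in 70 windows. The same median was 8.21-fold in moderately and 25.7-fold in thinly covered windows. The highest number of calls was found in Creole 1 at chromosome 3, 82806001 to 82807000, with 960242 calls, against 10022 and 11356 in the other Creole animals and 8310, 10549 and 4745 in the Spanish animals. Creole 1 alone stood apart there. Its level in that window was 79.5%, within the 75.5% to 84.0% seen over the 6 animals. At the threshold, the first 3 windows left out had 992, 993 and 998 calls in their least covered library and levels of 66.4%, 84.4% and 75.1%. The first 3 windows taken in had 1000, 1003 and 1004 calls and levels of 71.8%, 32.1% and 78.2%.

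The deep windows were mostly highly methylated. Their mean level was 70.6%, 70.6% and 69.2% in the Creole animals and 70.9%, 71.7% and 71.5% in the Spanish animals. In the other windows the same libraries read 61.9%, 62.0%, 60.7%, 62.5%, 62.7% and 62.6%. Every library was thus higher in the deep windows, by 8.70 ± 0.230 points (SD, n = 6), and the difference reached the smallest p that 6 libraries allow (two-sided exact sign-flip permutation test, p = 0.031). Against the moderately covered windows alone the difference was 4.71 points. Counting each locus (windows no more than 20 kb apart) once gave 14.4 points, an alternative chosen after seeing the data.

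**Figure D1:**
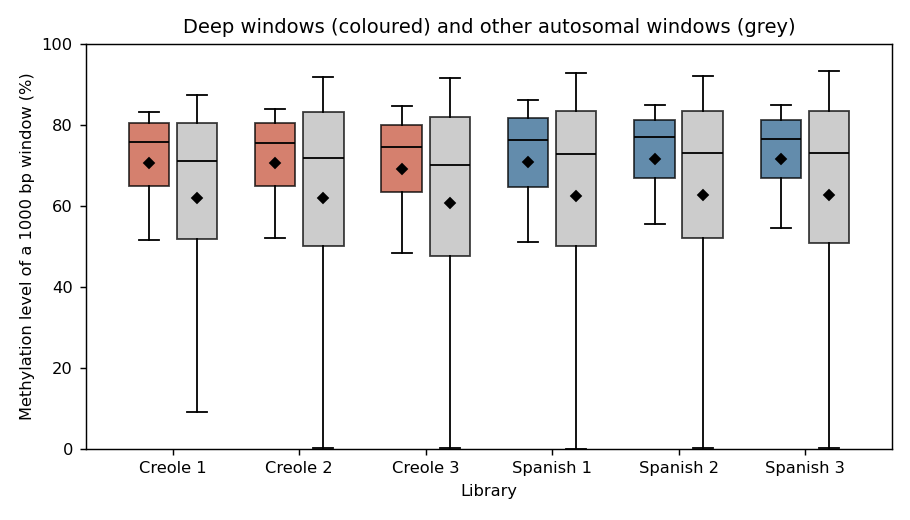
Methylation level (%) of 1000 bp windows in each library, deep windows in colour (red Creole, blue Spanish) and other autosomal windows in grey. Boxes show the quartiles and the median, whiskers the 10th to 90th percentiles, and diamonds the mean; the deep windows have the higher mean in all 6 libraries and few low levels, while whiskers of the other windows reach near 0 in 5 of them.

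Low methylation was rarer in deeper windows. Only 17 of 714 deep windows (2.38%) had a mean level below 20%, against 106 of 1263 moderately covered windows (8.39%) and 461 of 2584 thinly covered windows (17.8%). Levels of 70% to 90% were found in 463 deep windows (64.8%), in 54.2% of the moderately and in 40.9% of the thinly covered windows. Levels of 90% or more were rarer in the deep windows (12 windows, 1.68%) than in the moderately (3.48%) and thinly covered classes (9.25%). The middle ranges held 34 deep windows at 20% to 50% (4.76%, against 6.41% and 7.43% of the moderately and thinly covered windows) and 188 at 50% to 70%. The measured levels of very deep windows were therefore concentrated between 70% and 90%. They include cytosines that library preparation may have filled in as unmethylated, described next, and such cytosines lower the level of a window. Their part in this band, and in the rarity of levels of 90% or more, was not tested.

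Many CpGs were read as methylated on 1 strand only. Both strands were covered in 4004 CpGs of the deep windows, and the strands differed by more than 50 points in 767 of them (19.2%). In these CpGs the low strand had a median level of 1.73% and the high strand 93.6%. In the other windows the strands differed as much in 647 of 3034 such CpGs (21.3%), so the share per CpG was about the same. Such CpGs occurred in 384 deep windows (53.8%) and in 10.4% of the other windows, where both strands were covered less often. Library preparation fills in the ends left by MspI with unmethylated cytosine. In the deep windows, 566 cytosines (3.94%) were marked as open to this. Each was 1 strand of the outermost CpG of a covered stretch, with both strands covered and stretches parted by gaps over 100 bp. The marked cytosines read 8.25% on average. Without marked cytosines the mean level rose to 73.6% in the deep windows and to 65.1% in the other windows. Ends covered on 1 strand only, or lying inside a stretch, were not marked, so these means can still include fill-in.

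The repeat-like nature of the windows was checked through the spacing of their cytosines, since no repeat annotation or sequence of this build was used here. A run of 5 successive distances between shared cytosines recurred in a second, non-adjacent deep window for 628 of 714 windows (88.0%), against 59.3% among moderately covered windows and 36.7% among all other windows. Among windows with enough cytosines to hold such a run, the shares were 90.8%, 67.4% and 51.8%. Many of these distances are the single base between the strands of a CpG. Both strands were covered for 55.7% of deep cytosines and 16.9% of the others, and the part of this in the shares was not tested here. The 5 commonest runs were found in 98, 78, 74, 72 and 71 deep windows on 17 to 21 chromosomes, and each consists of 3 strand pairs with 2 free distances. All 5 match parts of the spacing of unit A, described below, read in either direction, so they need not be separate patterns.

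Distances between CpGs, each counted once, are the stricter measure. Among windows with at least 5 CpGs covered on both strands, 4 successive CpG distances recurred in another non-adjacent window of the class for 309 of 379 deep windows (81.5%) and for 224 of 316 other windows (70.9%). Recurrent spacing, the mark expected of repeat copies, was thus common in the deep windows and nearly as common in the other windows that could be read this way. The remaining deep windows either had too few paired CpGs to be judged or showed no recurrent pattern.

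Joining the recurrent patterns gave 3 longer CpG units, chosen after seeing the data, which 171 deep windows (23.9%) held in part or whole and no window held more than 1 of them. Unit A has 9 CpGs at successive distances of 13, 7, 30, 4, 7, 17, 29 and 12 bp, a span of 119 bp. It was found in 134 deep windows (18.8%) on 22 chromosomes and in 78 other windows (2.03%). Only windows with at least 5 CpGs covered on both strands could hold part of a unit, 379 deep and 316 other ones. The units were also built from the deep windows alone, so the 2 shares do not compare the classes on equal terms. Whole copies numbered 52 in the deep windows, 29 in the named orientation and 23 reversed, on 15 chromosomes. Unit B has 6 CpGs (distances of 45, 7, 8, 6 and 19 bp, a span of 85 bp). It occurred in 19 deep windows on 6 chromosomes and in 16 other windows. Unit C has 7 CpGs (distances of 32, 5, 22, 15, 27 and 25 bp, a span of 126 bp). It occurred in 18 deep windows on 5 chromosomes and in 11 other windows. No repeat family is named for the units, because the files hold positions and no bases.

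Windows holding the 3 units differed in mean level. Windows with unit A averaged 79.5%, 79.1%, 78.0%, 79.2%, 79.9% and 79.5% in the libraries in the order given above, a mean of 79.2%. Those with unit B averaged 75.5%, ranging from 73.3% in Spanish 3 to 77.4% in Spanish 1. Windows with unit C averaged 64.2%, from 62.0% in Creole 2 to 65.8% in Creole 1. Units B and C lay on few chromosomes, and several of their windows shared a locus. In the chromosome 4 locus that holds unit C, described below, all 11 windows lay at 55.9% to 64.8%, with and without the unit. Whether the levels belong to the units or to their loci was not tested. The lowest window with unit A stood at 58.9% and the highest at 90.1%, so none was below 50%. The 543 deep windows outside the units averaged 68.7%.

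Along unit A, both strands kept the same profile in every library. On the 7 inner CpGs, levels lay between 87.6% and 92.6% on either strand except at the seventh CpG of the unit, 78 bp from the first. There the strand average was 78.7%, 76.0% and 75.4% in the Creole animals and 81.8%, 79.5% and 79.2% in the Spanish animals. The other inner CpGs read 89.1% in Creole 3 to 91.4% in Spanish 2. The seventh CpG was lower by 11.7 points (SD 2.03, n = 6) in the deep windows, and lower in 51 of the 52 copies. Since the dip was noticed there, it was tested only in the 17 whole copies of the other windows, which the choice of the unit had not used. The copies were new but the 6 libraries were the same, so the test is no independent repeat over animals.

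In those 17 copies the seventh CpG averaged 79.1%, 79.5%, 79.4%, 73.3%, 77.0% and 83.0% in the 6 libraries, against 89.8% ± 1.95 (SD, n = 6) at the other inner CpGs. The difference of -11.3 ± 1.98 points (SD, n = 6) had the same sign in 6 of 6 libraries and in 16 of 17 copies (two-sided exact sign-flip permutation test, p = 0.031, the smallest possible). These copies were thinly read, so the count of copies is less firm. At the seventh CpG the least covered library had a median of 10 calls on the first strand and 12 on the second. The deep copies had 348.5 and 95.5. Copies with exactly 1 inner CpG missing were few. A CpG counted as missing when it was not covered on both strands in all 6 libraries, so it need not be absent from the DNA. The second CpG was missing in 2 deep copies, the fourth in 1, the fifth in 2, the sixth in 1 and the eighth in 3. The third and the seventh were missing in no copy. Reads can be placed among near-identical copies, and how the aligner did so is not given in the sources used here; whether copies share reads was not tested.

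**Figure D2:**
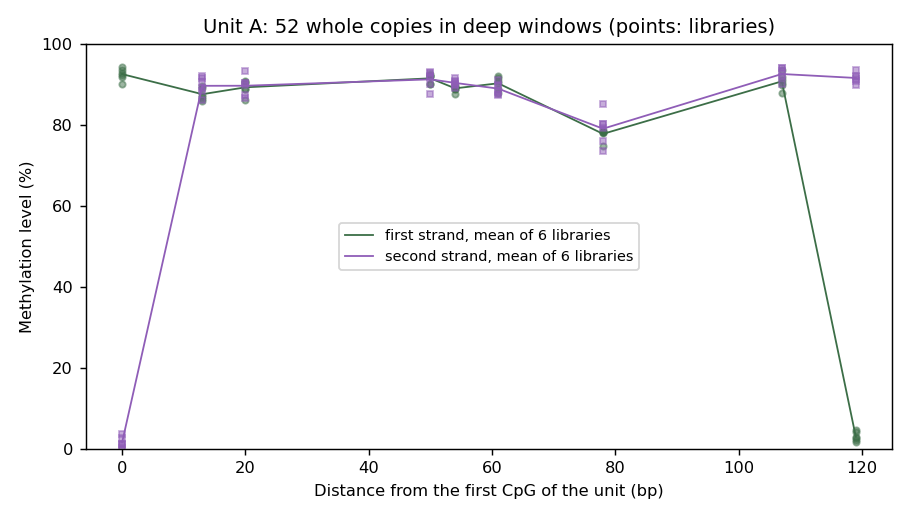
Methylation level (%) of the 9 CpGs of unit A against distance from its first CpG (bp), over 52 whole copies in deep windows. Lines give the mean of 6 libraries for each strand and points the single libraries; inner CpGs lie near 90% apart from the seventh at 78 bp, and 1 strand at each end is near 0.

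At the ends of unit A, where fill-in could act, the strands differed in every library. At the first CpG the first strand read 92.6% ± 1.43 (SD, n = 6) and the second strand 1.66% ± 1.24. At the ninth CpG the first strand read 3.01% ± 1.21 and the second strand 91.6% ± 1.28. The strands were also read unequally. In copies of the named orientation the first strand took 65.6% ± 9.55 (SD, n = 6) of the calls, and in reversed copies it took 81.6% ± 5.72. The first strand of the unit had the majority of calls in 22 of 29 copies of the named orientation and in 20 of 23 reversed copies. Spanish 1 was the exception among the libraries, with 48.1% on the first strand in copies of the named orientation.

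Deep windows were found on all 29 autosomes but not evenly. Chromosomes 8, 3 and 4 had the most, with 71, 67 and 61, and chromosome 17 the fewest, with 3. Relative to the stretch of chromosome covered, chromosome 27 had 9.20 and chromosome 25 had 8.66 per 10 Mb, against 0.40 on chromosome 17. The first megabase of the autosomes, next to the centromere in these acrocentric chromosomes, held 37 deep windows (5.18%) and 137 of the other windows (3.56%). Mean levels by chromosome ran from 63.0% on chromosome 25 and 63.2% on chromosome 29 to 78.6% on chromosome 18 and 79.0% on chromosome 5. On chromosome 25, the 6 libraries lay between 61.3% and 64.9%, and 8 of its 37 windows were below 50%.

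**Figure D3:**
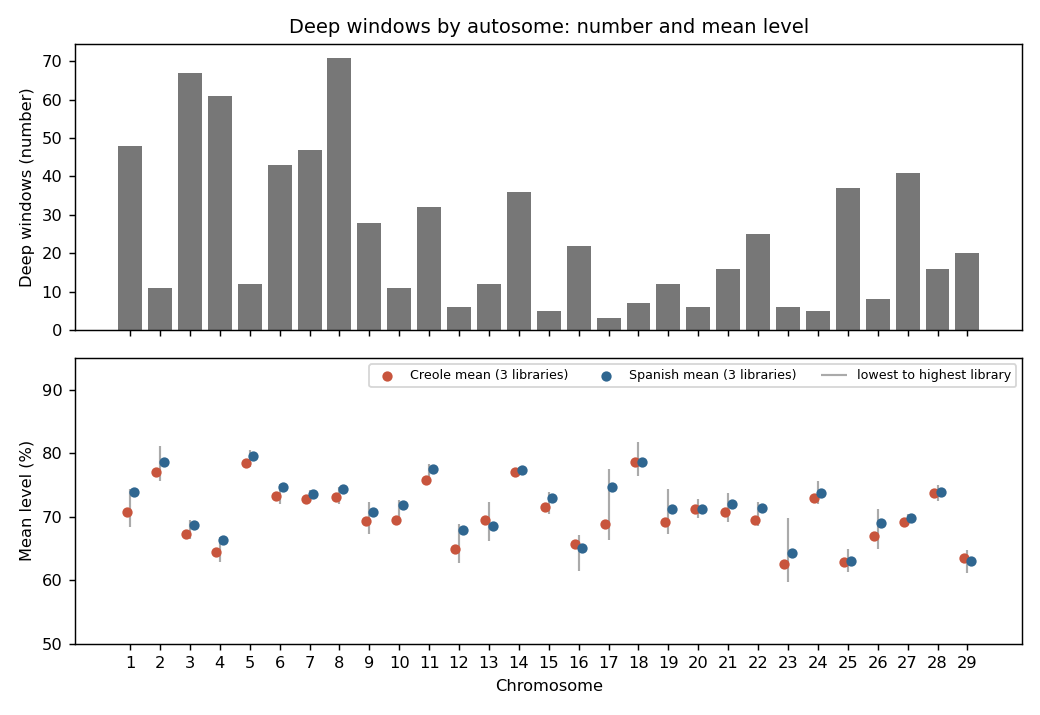
Deep windows on each autosome: their number (top) and their mean methylation level in % (bottom; red Creole mean, blue Spanish mean, grey line from the lowest to the highest of 6 libraries). Chromosomes 8, 3 and 4 have the tallest bars, and the Spanish mean is the higher one on 25 of 29 chromosomes.

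Deep windows came in groups. Another deep window lay directly beside 206 of them (28.9%), and the 598 runs comprised 508 single windows, 70 pairs, 15 runs of 3, 4 runs of 4 and 1 run of 5. The median distance from one deep window to the next on a chromosome was 7000 bp (quartiles 2000 and 923000 bp), and 448 of 685 distances (65.4%) were 20 kb or less. Linking windows across such distances gave 266 loci. Of these, 138 were single windows, while 38 loci of 5 or more windows held 338 windows (47.3%). Many windows were thus clustered, while others were isolated.

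The largest locus spanned 195 kb on chromosome 3 (82710001 to 82905000) with 33 deep windows. Its windows ranged from 53.5% to 86.8%. The locus averaged 72.4%, 72.5% and 72.2% in the Creole animals and 74.0%, 75.7% and 76.1% in the Spanish animals, so that the groups did not overlap. It also holds the window with 960242 calls in Creole 1. In a locus of 11 windows on chromosome 4 (41466001 to 41498000) the windows were alike at 55.9% to 64.8%, and the groups were close at 60.5% ± 2.93 in Creole and 60.8% ± 1.91 in Spanish animals (SD, n = 3 each). Within loci of 5 or more windows, the SD over windows had a median of 8.82 points, against 15.6 points over all deep windows.

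The most mixed locus lay on chromosome 3 between 8102001 and 8112000, where 7 deep windows covered 3.17% to 82.2%. Its first window (8102001 to 8103000) read 8.84%, 6.96% and 2.20% in the Creole animals and 4.90%, 2.17% and 4.66% in the Spanish animals. The next window was the lowest of all, at 8.29%, 1.18% and 0.72% in Creole and 0.05%, 0% and 8.79% in Spanish animals; the 0 of 1451 calls in Spanish 2 allows a level of up to 0.207%. Only 1 kb further on, the window at 8105001 to 8106000 stood between 74.5% and 89.8% in the 6 animals. Low and high methylation thus alternated within 10 kb, and the groups overlapped in each of the windows given. A window at the far side (8110001 to 8111000) read 18.4%, 9.98% and 19.4% in Creole and 0.94%, 8.39% and 9.75% in Spanish animals, without overlap.

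A uniformly low locus lay on chromosome 25 (32362001 to 32375000), where 6 deep windows had means of 15.3% to 29.6%. Its Creole mean was 21.8% ± 6.95 and its Spanish mean 16.9% ± 5.95 (SD, n = 3 each), a difference within the spread of either group. Single windows varied widely between animals there. The window at 32366001 to 32367000 read 26.8%, 48.9% and 17.3% in Creole and 12.9%, 9.56% and 8.68% in Spanish animals. A neighbour (32368001 to 32369000) read 29.8%, 10.3% and 0% in Creole, where the 0 of 1945 calls in Creole 3 allows up to 0.154%, and 15.5%, 14.6% and 37.4% in Spanish animals. Low deep windows were also found outside these loci, such as chromosome 7 at 89221001 to 89222000 (mean 7.38%) and chromosome 27 at 26383001 to 26384000 (mean 12.5%).

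**Figure D4:**
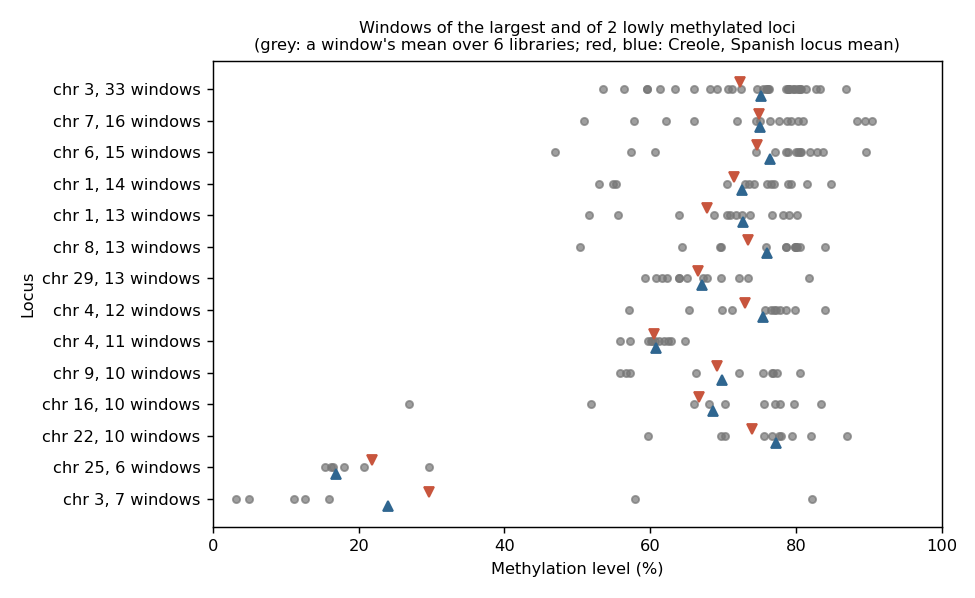
Mean methylation level (%) over 6 libraries of each deep window (grey points) in the 12 loci of 10 or more windows and in 2 loci with low levels, with the locus mean of the Creole (red) and the Spanish (blue) libraries. The windows of most loci spread between 50% and 90%, the 11 windows on chromosome 4 sit within 55.9% to 64.8%, and the 2 lowest rows are the loci on chromosomes 25 and 3 described above.

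The longest run, 5 adjacent windows on chromosome 1 (144089001 to 144094000), had window means of 71.8%, 70.9%, 79.0%, 76.7% and 78.2%. Over the run the Creole animals read 71.1%, 75.8% and 67.7% and the Spanish animals 81.1%, 76.9% and 79.2%. All Spanish values were above all Creole values. Its first window is the least covered of all deep windows, with 1000 calls in Spanish 1, and varied from 48.1% in Creole 3 to 96.6% in Spanish 1. The 4 runs of 4 windows (chromosome 22 at 53678001, chromosome 3 at 8102001, chromosome 7 at 12116001 and chromosome 8 at 56775001) differed in evenness. The run on chromosome 8 stayed between 69.6% and 84.0%, while the run on chromosome 7 went from 50.9% to 89.4%.

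The deepest windows, ranked by their least covered library, were all methylated. The window at chromosome 28, 1894001 to 1895000, had at least 186897 calls in every library and 113 shared cytosines, and read 81.5%, 84.3% and 85.5% in Creole and 82.8%, 84.1% and 79.8% in Spanish animals. At chromosome 9, 65873001 to 65874000, with 103 shared cytosines, the level was 89.1% ± 1.13 (SD, n = 6). The window at chromosome 11, 107284001 to 107285000, read 88.7% to 90.8% in 5 animals and 79.9% in Spanish 1. Chromosome 7 at 110045001 to 110046000 holds unit A and stood at 77.3% ± 1.63 (SD, n = 6).

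The second deepest window was the exception in level. At chromosome 8, 11950001 to 11951000, with at least 161711 calls in every library, the Creole animals read 48.8%, 51.5% and 48.4% and the Spanish animals 53.0%, 56.7% and 56.8%. The groups did not overlap there, but the difference of -5.92 points did not pass edgeR's quasi-likelihood test after Benjamini-Hochberg adjustment (adjusted p = 0.716). The highest levels were reached at chromosome 16, 13666001 to 13667000 (mean 95.02%), chromosome 11, 107286001 to 107287000 (94.9%), and chromosome 2, 136710001 to 136711000 (94.1%). Chromosome 8 at 110747001 to 110748000 (93.2%) and chromosome 14 at 278001 to 279000 (92.0%) followed.

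Spread between animals was small in most deep windows. The SD over the 6 libraries had a median of 3.96 points, against 6.84 in moderately and 9.14 in thinly covered windows. Counting error is larger at low depth, so all autosomal windows of at least 100 calls were thinned to 100 calls in each library. The median SD was then 5.61 points in the deep windows and 7.79 in the moderately covered ones. An SD below 5 points was found in 472 deep windows (66.1%), and an SD over 10 points in 48 (6.72%), against 26.8% of the moderately covered windows. The steadiest deep window, at chromosome 11, 79828001 to 79829000, read between 79.2% and 80.6% in all 6 animals.

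The spread depended on the level. In deep windows at 70% to 90% the median SD was 3.17 points, at 50% to 70% it was 5.41, and at 20% to 50% it was 7.62. Moderately covered windows showed 6.33, 8.72 and 13.5 points in the same bands. Below 20% the order turned, with 6.24 points in 17 deep windows and 4.85 points in 106 others. The smaller spread of the deep windows was therefore not seen among lowly methylated ones. Within a group, the median SD over 3 animals was 2.96 points in Creole and 3.35 points in Spanish.

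**Figure D5:**
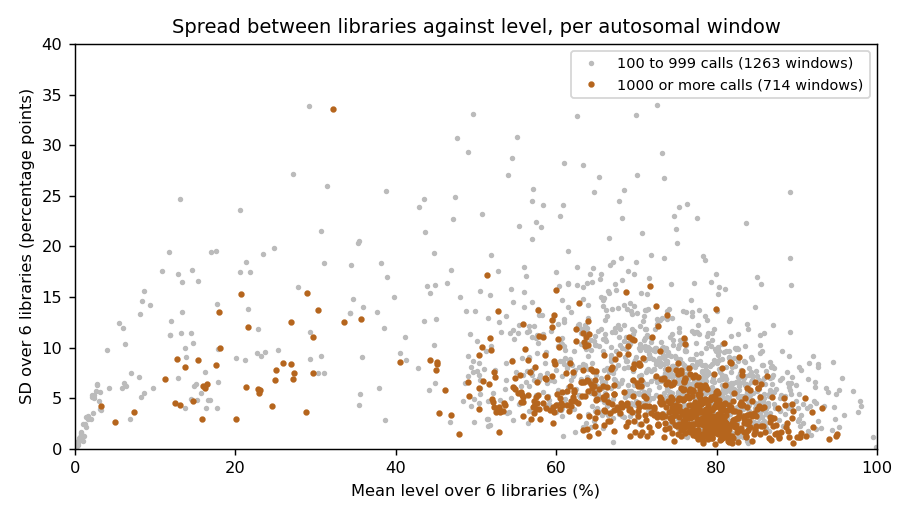
SD over 6 libraries (percentage points) against mean methylation level (%) for 714 deep windows (brown) and 1263 moderately covered autosomal windows (grey). Most deep windows sit at 70% to 90% with an SD under 5 points, and 1 deep window near 32% has an SD of 33.6 points.

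The largest spread was found at chromosome 16, 7446001 to 7447000, with 17 shared cytosines. Creole 1 read 54.8%, Creole 2 28.0% and Creole 3 86.8%, while Spanish 1 read 0.60%, Spanish 2 22.6% and Spanish 3 0%, where 0 of 1383 calls allows up to 0.217%. All Creole values were above all Spanish values, but the animals of the Creole group differed among themselves by more than the group means did. Other windows varied inside both groups. At chromosome 8, 110680001 to 110681000, which holds unit A, the Creole animals read 45.0%, 78.6% and 59.4% and the Spanish animals 42.1%, 78.3% and 56.6%.

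In 2 further windows, 1 animal made the spread. Spanish 1 read 85.5% at chromosome 4, 33563001 to 33564000, where the other 5 animals read 39.6% to 49.2%. At chromosome 3, 104132001 to 104133000, Spanish 1 was low at 40.0% and the other animals were at 65.0% to 82.0%. Spanish 1 was the least covered library in 241 of the 714 deep windows; the part of depth in these values was not tested.

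Between the groups, the deep windows differed slightly. The Creole animals averaged 70.1% ± 0.806 and the Spanish animals 71.4% ± 0.413 (SD, n = 3 each). The Creole value minus the Spanish one was -1.24 points (SE 0.523). The groups did not overlap, and the two-sided exact permutation test gave p = 0.1, the smallest that 3 against 3 allows, so the design could not pass 0.05. Without Creole 3, which had the lowest level in 204 of the 714 windows, the difference was -0.774 points. When windows were weighted by their calls, the direction turned to 0.551 points higher in Creole (exact permutation p = 0.8). The call-weighted levels were 72.5%, 73.6% and 71.4% in Creole and 69.2%, 72.5% and 74.3% in Spanish animals, which overlap.

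The other windows showed nearly the same group difference, -1.05 points (exact permutation p = 0.1). The difference between these differences was -0.185 points (two-sided exact permutation test, p = 0.4), so no group effect particular to the deep windows was detected. The direction was not uniform over levels, as a description made after seeing the data. Among 475 windows at 70% or more, the Spanish mean was higher in 290 and the group difference was -1.13 points. Among 188 windows at 50% to 70% it was higher in 132, with a difference of -2.75 points. Among 51 windows below 50%, the Creole mean was the higher one in 36, with library means of 31.0%, 26.9% and 26.0% in Creole and 23.3%, 24.3% and 26.3% in Spanish animals, which overlap.

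Window by window, edgeR's quasi-likelihood test called 0 of the 714 deep windows at an adjusted p under 0.05, with a background of 0% called among all 4702 windows. The smallest adjusted p among the deep windows was 0.504. At an unadjusted p under 0.05 it listed 49 deep windows (6.86%, background 5.36%), 3 of them higher in Creole (0.420%, background 1.89%) and 46 higher in Spanish animals (6.44%, background 3.47%). By limma, 0 deep windows were called (background 0.0213%) and 13 had an unadjusted p under 0.05 (1.82%, background 5.42%). By edgeR's likelihood ratio test, 0 were called (background 1.23%) and 14 had an unadjusted p under 0.05 (1.96%, background 7.25%). The share of deep windows was thus above the background by the quasi-likelihood test and below it by both other tests.

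Groups did not overlap in 119 deep windows. All Spanish values were above all Creole values in 105 of them (14.7%, background 9.32%), with differences of 0.805 to 21.9 points and a median of 5.32 points. All Creole values were higher in 14 (1.96%, background 3.83%), by 1.34 to 48.8 points with a median of 7.62. Differences of 10 points or more without overlap numbered 22 in the first direction (3.08%, background 4.96%) and 4 in the second (0.560%, background 2.47%), below the background in both. Over all deep windows the Spanish mean was the higher one in 437 and the Creole mean in 277, and the median difference was -1.05 points against -0.66 points in the other windows. In the 38 loci of 5 or more windows, the Spanish mean was higher in 28.

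Several of the deep windows with the smallest p were steady within both groups. Chromosome 9 at 38521001 to 38522000, which holds unit A, read 71.0%, 69.9% and 65.4% in Creole and 79.6%, 79.7% and 79.9% in Spanish animals. At chromosome 14, 43043001 to 43044000, the Creole animals read 79.3%, 76.3% and 76.5% and the Spanish animals 83.5%, 82.4% and 82.6%. Chromosome 27 at 6279001 to 6280000 read 87.5%, 87.0% and 87.8% in Creole and 90.1%, 90.1% and 91.3% in Spanish animals. These differences of -11.0, -5.46 and -3.06 points exceeded the SD within either group. None passed the adjustment over all windows (edgeR quasi-likelihood adjusted p = 0.504, 0.568 and 0.638). A ranking by smallest p selects for groups that are steady and apart, here and in the windows listed next.

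The next windows in that direction behaved alike. At chromosome 22, 53680001 to 53681000, inside a run of 4, levels were 83.0%, 85.6% and 84.3% in Creole and 88.7%, 90.6% and 89.7% in Spanish animals. At chromosome 25, 4827001 to 4828000, they were 74.4%, 71.8% and 74.3% against 84.2%, 80.1% and 79.1%. In both windows the groups were separate.

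In the opposite direction the smallest p belonged to a lowly methylated window. Chromosome 6 at 19800001 to 19801000, with at least 60666 calls in every library, read 28.1%, 22.1% and 28.4% in Creole and 19.3%, 17.2% and 13.0% in Spanish animals (edgeR quasi-likelihood adjusted p = 0.738). Chromosome 8 at 99202001 to 99203000 read 80.8%, 76.2% and 87.8% in Creole and 66.3%, 70.01% and 72.6% in Spanish animals. Chromosome 9 at 45032001 to 45033000, with unit A, read 80.5%, 78.7% and 80.2% against 69.0%, 74.7% and 77.9%. The window on chromosome 25 at 32366001 and the one on chromosome 16 at 7446001, described above, complete the 5. In all 5 the groups were separate, and none passed the adjustment (edgeR adjusted p from 0.738 to 0.857).

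The authors' deposited table of differentially methylated regions had no entry in the deep windows. Of its 334 regions, 0 overlapped a deep window by 1 bp or more, while 12 regions fell in 12 of the 3847 other windows (0.312%). With so low a share in the other windows, 0 of 714 deep windows is not read as a depletion. How the authors treated very deep positions when they made that table is not given in the sources used here. No gene is named for any deep window, since gene names were taken only from that table.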

How the data were processed

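The submitters' processing notes name Trim Galore, Bismark, methylKit and the build UMD3.1; the sources used here give no versions, settings or duplicate handling. Per library, the authors deposited a count of methylated and of unmethylated calls for each CpG cytosine, unnormalized, and the percent level beside it. Their table of regions gives group means as a fraction, a difference and a score per the file headers; only positions were used, and 0 sample columns were left unmapped. Calls at cytosines covered in all 6 libraries were summed in 1000 bp windows here, and levels were recomputed. Sums were tested with edgeR 4.0.16 (quasi-likelihood, no dispersion trend, Benjamini-Hochberg over 4702 windows) in R 4.3.3, with edgeR's likelihood ratio test and limma 3.58.1 (log2 ratio, 2 added to each sum) as alternatives. Library means were compared by exact permutation, and Wilson intervals were computed with scipy 1.17.1. The quasi-likelihood test of edgeR, and no other test, was also checked on simulated data with known changes.

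Groups follow breed labels; replicate numbers follow sample order. The windows and lists were chosen with earlier results of these data known. Named are the 5 deepest, lowest, highest and most variable windows, the 5 longest runs, the 5 of smallest p in each direction, the 3 windows on either side of the threshold and the 5 commonest spacings. The units, loci, level bands and steadiest window were chosen after the data were seen. Separate samples are separate animals, 1 library each, so p-values measure spread between animals. Sequences and genes would need a genome of UMD3.1, which was not used here.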

Additional observations from a re-analysis of the deposited data

How the results depend on the processing

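The number of deep windows was 454 at a minimum of 2000 calls and stayed within 1.5 times of 714 under 4 other choices (590 to 1009). The Creole minus Spanish level turned to 0.551 points when calls were summed over all deep windows, and ranged from -1.48 to -0.774 points when 1 library was left out; 7 other alternatives kept its direction, among them equal weight for each locus, chosen after seeing the data. The deep minus other difference ranged from 8.64 to 8.75 points when 1 library was left out, where 5 libraries cannot pass 0.05 by construction. It was 7.11 points without windows holding unit A, also chosen after seeing the data. No deep window was called by edgeR or limma under the 13 alternatives run. The median SD was 4.45 points at 500 calls, 3.38 at 2000 calls, 5.61 after thinning to 100 calls, 4.25 without unit A (chosen after seeing the data), and 3.55 to 4.07 when 1 library was left out. The share with an adjacent deep window was 22.9% at 2000 calls. The share with a recurrent spacing was 92.7% with 4 distances, 57.0% with 8 and 84.8% at 500 calls. Except for the thinning and for fewer libraries, the cause was not tested. No paired analysis was possible because replicate numbers follow sample order and pair no animals. Depth sets the precision of single windows, not of the group comparison, which rests on 3 animals against 3.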

Other observations

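The X chromosome lies outside the rule and had 34 windows of the same depth among its 141. Their median level was 77.2% and their median SD over the 6 libraries 3.5 points. The libraries averaged 75.1%, 76.5% and 72.5% in Creole and 75.2%, 75.9% and 76.7% in Spanish animals. Creole 3 was the lowest there too, and the groups overlapped. Unit A was found in part or whole in 8 of all 141 X windows, and how many of these were deep was not counted.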
